A study of Rattus norvegicus with 24 samples.

Results

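Blood mononuclear cells of arthritic rats that had received mechanical stimulation (MS) for 34 days were set against those of arthritic rats before any therapy. The comparison takes the 2 arrays labelled as therapy with a needle at 34 days (MS rep 1 and MS rep 2) and the 2 arrays of untreated arthritis at baseline (CIA rep 1 and CIA rep 2), which are 4 of the 24 arrays of the series. All 4 came from female Wistar rats in which collagen-induced arthritis (CIA) had been raised with bovine type II collagen in adjuvant and a booster. The MS rats were also punctured with a short steel needle, which was twirled under the skin of the lower back and beside the tibia in repeated sessions, and ether was used when their blood was drawn. All animals were shaved, and RNA was extracted in one batch. The CIA baseline rats had the same disease without therapy. Blood was drawn once from each rat, at its death, so that the groups are different rats. The sources name the 2 arrays of a group replicates without saying that they came from separate rats. The p-values rest on the spread between such arrays, pooled over all 12 groups of the series, which may be technical in part. The MS arrays differed from each other more than the CIA baseline arrays did (SD 0.836 against 0.286), and the pooled spread does not show this. Because no MS rat was sampled before therapy, therapy, 34 days of disease and 34 days of age cannot be told apart in this comparison. Healthy rats of the same strain (NOCIA), sampled at 34 days and at baseline with 2 arrays each, give the change over the same days without disease or needle, and share no array with the comparison.

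A mononuclear fraction from a density gradient holds lymphocytes, natural killer cells and monocytes, and platelets can come with it. Platelets are shed by megakaryocytes, carry RNA from them but no nucleus, and release adhesion proteins, growth factors and nucleotides at a wound. T and B lymphocytes carry the response to collagen in this model, and monocytes present its peptides on class II molecules. Immediate early genes such as Fos and Egr1 are transcribed within minutes of many stimuli. In cells of bulk blood, fewer cells of a type and less RNA per cell cannot be told apart. The labelled tissue was checked against marker genes. Defining genes of T cells (Cd3e, 9.74 and 11.31 in the MS arrays, 11.66 and 11.81 in the CIA baseline arrays), B cells (Ms4a1, 6.70 and 8.17 against 9.89 and 9.58) and monocytes (Ctss, 9.59 and 11.26 against 11.65 and 11.73) were measured in all 4 arrays. The platelet gene Pf4 lay near the top of the scale, at 14.71 and 14.64 in the MS arrays and 14.43 and 14.33 in the CIA baseline arrays.

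Values are RMA expression values on the log2 scale, where a difference of 1 is a doubling of the signal. Each change is given as MS at 34 days minus CIA baseline with the standard error (SE) of the limma fit, n = 2 arrays per group. A probe set was called higher or lower at a Benjamini-Hochberg adjusted p under 0.05. Of 20690 probe sets tested, 314 (1.52%) were called higher and 1125 (5.44%) lower. At the thresholds of the study's methods, an unadjusted p under 0.05 and a fold change over 2, 1080 (5.22%) were higher and 1786 (8.63%) lower. The split at these thresholds became 1252 higher and 1262 lower after quantile normalization, which moved the median of all probe sets from -0.16 to -0.05. Both calls depended on which arrays were fitted. No probe set was called without MS rep 1, without CIA rep 1, without CIA rep 2, with only these 4 arrays in the fit, or with array weights. Of these fits, that with only the 4 arrays gave an unadjusted p under 0.05 to 953 probe sets higher and 2053 lower, that with array weights to 1244 and 2887, that without CIA rep 1 to 1547 and 3021, and that without CIA rep 2 to 1505 and 2878. The methods' thresholds were passed by 102 higher and 394 lower without MS rep 1.

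The 2 MS arrays differed widely from each other. The difference between them exceeded 1 at 4993 probe sets (24.1%), against 230 (1.11%) for the 2 CIA baseline arrays, and its SD over probe sets was 0.836 in MS and 0.286 in CIA baseline. MS rep 1 lay over 1 above both CIA baseline arrays at 2017 probe sets and over 1 below both at 4442. For MS rep 2 these counts were 326 and 367. Both MS arrays passed these limits together at 280 probe sets above (1.35%) and 297 below (1.44%). With no limit on size, both MS arrays lay above both CIA baseline arrays at 25.2% of probe sets and below both at 38.4%. They passed them in opposite directions at 5 probe sets, all of them above in MS rep 1. Among the probe sets called, MS rep 1 was the further from the CIA baseline mean in 301 of the 314 called higher and 1056 of the 1125 called lower. The median shift of the probe sets called higher was 1.47 in MS rep 1 and 0.73 in MS rep 2. Those called lower had median shifts of -1.58 and -0.81 in the same order of arrays. At all 1439 probe sets called, both MS arrays lay on the same side of both CIA baseline arrays. When MS rep 2 alone stood for the group, all 314 and all 1125 therefore had to keep their direction. MS rep 2 was also part of the group when they were called, so that this is no separate test. As given above, no probe set was called in the fit without MS rep 1.

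**Figure D1:**
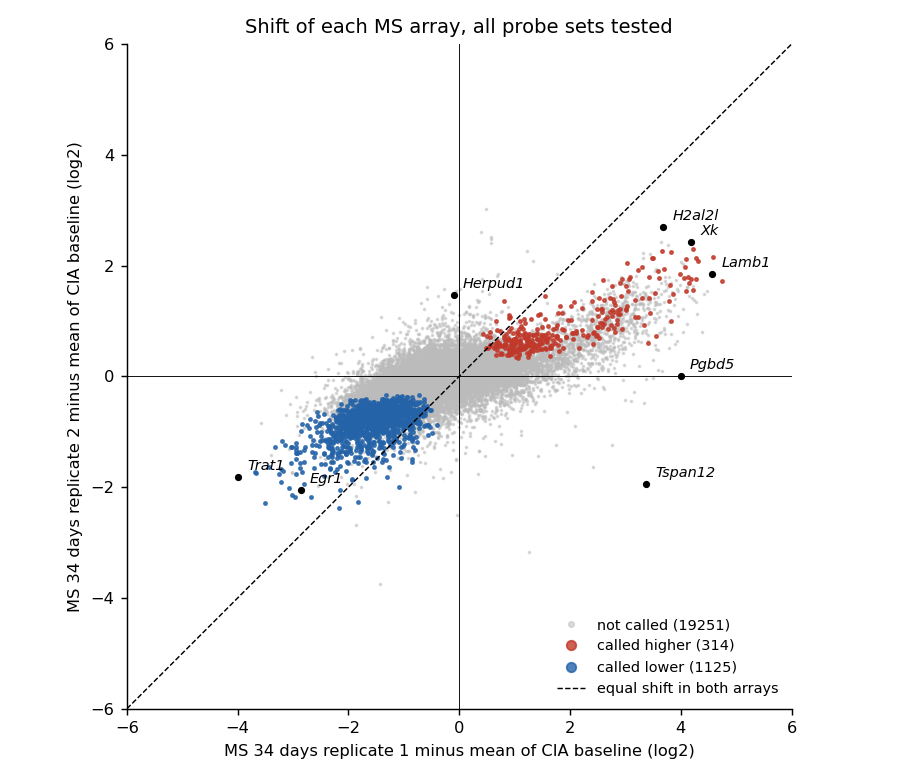
Difference of MS rep 1 (x axis) and MS rep 2 (y axis) from the mean of the 2 CIA baseline arrays, log2, for 20690 probe sets, with those called higher in red, those called lower in blue and the dashed line at equal shifts. Called probe sets lie in the upper right and lower left and mostly between the dashed line and the x axis, where the shift of MS rep 1 is the larger, with median shifts of 1.47 and 0.73 for those called higher.

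Ranked by the distance between the nearest arrays of the groups, the widest gap among the probe sets called higher with 1 gene symbol was that of H2al2l, an H2A-type histone gene. It measured 11.72 and 10.74 in the MS arrays, against 8.06 and 8.03 in the CIA baseline arrays, and rose by 3.18 ± 0.84 (adjusted p = 0.043). Xk, whose product is the membrane partner of the Kell blood group protein, came next. It measured 10.71 and 8.95 in the MS arrays and 6.52 in both CIA baseline arrays, and rose by 3.31 ± 0.94 (adjusted p = 0.0472). In the RefSeq annotation H2al2l and Xk lie on chromosome X, and both are read from the minus strand. By their coordinates H2al2l lies within the span of Xk. Whether their probe sets read separate transcripts was not tested, so that they may not be independent. The next protein-coding genes at lower coordinates than Xk were not called. Cybb, the catalytic subunit of the phagocyte oxidase, differed by -1.27 ± 0.58 and -0.99 ± 0.59 at its 2 probe sets, and Dynlt3, a dynein light chain, by 0.64 ± 0.21. The other 20 arrays spanned 6.48 to 11.38 at H2al2l and 4.93 to 9.96 at Xk. MS rep 1 lay above that range at both genes, and the highest of the other arrays was MS rep 1 at 1 hour at both (11.38 and 9.96).

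The promoters of H2al2l, Xk and Rhag are shown because the genes moved together. Rhag encodes the Rh-associated glycoprotein of the red cell membrane and also rose. GATA factors, which drive megakaryocyte and red cell genes, bind sites that contain GATA. The search was for AGATAA and TGATAA on both strands, and matches are in capitals. The windows run from 250 bases before to 50 bases after the RefSeq start, 5′ to 3′ along the gene, build GRCr8. That of H2al2l is at chrX:16135988-16136287, that of Xk at chrX:16145273-16145572 and that of Rhag at chr9:27594341-27594640, all on the minus strand.
H2al2l: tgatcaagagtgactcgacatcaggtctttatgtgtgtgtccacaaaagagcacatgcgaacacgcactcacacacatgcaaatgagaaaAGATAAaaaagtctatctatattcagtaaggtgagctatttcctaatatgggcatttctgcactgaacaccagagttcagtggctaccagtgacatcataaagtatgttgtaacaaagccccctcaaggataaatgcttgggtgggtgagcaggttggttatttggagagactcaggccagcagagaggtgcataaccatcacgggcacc
Xk: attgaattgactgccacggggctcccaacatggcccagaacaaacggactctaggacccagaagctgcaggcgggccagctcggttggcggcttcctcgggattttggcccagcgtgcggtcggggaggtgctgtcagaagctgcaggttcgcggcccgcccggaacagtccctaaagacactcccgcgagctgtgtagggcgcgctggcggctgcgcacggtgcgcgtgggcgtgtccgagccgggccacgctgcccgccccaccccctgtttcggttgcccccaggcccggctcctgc
Rhag: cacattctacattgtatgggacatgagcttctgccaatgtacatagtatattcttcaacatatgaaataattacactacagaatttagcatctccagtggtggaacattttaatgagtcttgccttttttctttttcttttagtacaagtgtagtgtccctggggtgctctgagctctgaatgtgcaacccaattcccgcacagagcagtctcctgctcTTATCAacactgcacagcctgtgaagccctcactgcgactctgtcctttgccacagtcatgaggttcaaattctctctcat
A match began 160 bases before the start of H2al2l and 31 bases before that of Rhag, and these letters were not in the window of Xk. They were found in 18.9% of 33469 windows of the table, in 10.8% of the windows of genes tested, in 8.21% of 134 windows of genes called higher and in 8.92% of 639 windows of genes called lower. The letters were thus no more frequent among the genes called than among those tested. A match is a description and not a binding site.

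The other 10 genes among the 12 with the widest gaps above CIA baseline had the same order of arrays, with MS rep 1 highest, MS rep 2 next and both CIA baseline arrays lowest. Abcc4, a transporter that exports cyclic nucleotides and loads platelet granules, measured 10.23 and 8.11 in the MS arrays against 6.24 and 6.05 in the CIA baseline arrays (3.02 ± 0.73, adjusted p = 0.0371). Fhl1, a LIM-domain protein of the cytoskeleton, measured 10.21 and 8.62 against 6.61 and 6.16 (3.03 ± 0.72, adjusted p = 0.0354). A second Fhl1 probe set, at higher levels, gave a difference of 2.04 that missed the threshold. Serpini1, the protease inhibitor neuroserpin, measured 10.69 and 9.69 against 7.79 and 7.52 (2.53 ± 0.51, adjusted p = 0.0274). Bcas3, a cytoskeletal regulator of cell migration, had 3 probe sets, all called higher, the first at 9.49 and 8.20 against 6.41 and 6.40 (2.43 ± 0.51, adjusted p = 0.0277) and the others with differences of 1.84 and 1.90. Bglap, the gene of the bone protein osteocalcin, measured 11.11 and 9.72 against 7.57 and 7.34 (2.96 ± 0.79, adjusted p = 0.0437). Cela1, an elastase, measured 10.93 and 9.56 against 7.42 and 7.44 (2.81 ± 0.79, adjusted p = 0.0467). The groups did not overlap at any of these genes, which follows from the ranking by gap. Cttnbp2nl, Mb21d2, Mpped2 and LOC100909539 completed the group, with differences of 2.82, 2.92, 3.10 and 3.01. Other probe sets of Cttnbp2nl and Mb21d2 differed by 1.25 and 0.40 and were not called. By the same choice, both MS arrays stood over 1 above the higher CIA baseline array at each of these 12 genes. MS rep 1 lay above all 20 other arrays of the series at 284 of the 314 probe sets called higher (90.4%), and MS rep 2 at 44 (14%).

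**Figure D2:**
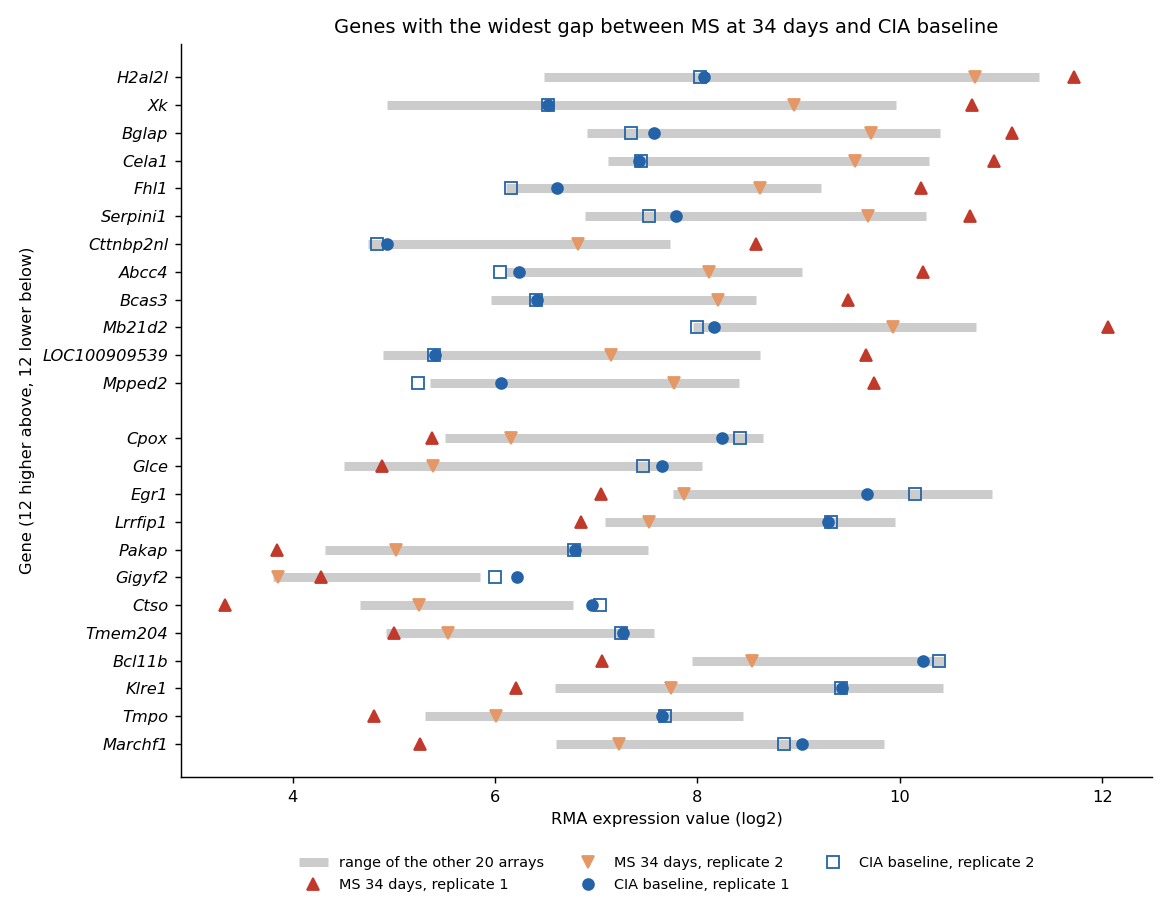
RMA log2 value of each MS 34-day array and each CIA baseline array for the 12 genes called higher and the 12 called lower with the widest gap between the groups, with a grey bar for the range of the other 20 arrays. Both MS arrays lie on the same side of both CIA baseline arrays in every gene, as the choice by gap requires. MS rep 1 is the further in all but Gigyf2.

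Platelet genes were taken by role, one probe set per gene. Among 18 surface receptors, 17 had both MS arrays above both CIA baseline arrays, against 22.9% of all 11057 genes, and the median difference was 1.66, beside -0.25 over all genes. None passed the adjusted threshold in limma, where 1.41% of genes were called higher and 6.39% lower, and 14 were higher at an unadjusted p under 0.05, against 12.6% of genes. P2rx1, a channel opened by ATP, measured 11.98 and 10.59 in the MS arrays and 9.03 and 8.83 in the CIA baseline arrays (2.36 ± 0.78, adjusted p = 0.0644). F2rl2, a thrombin receptor, measured 12.20 and 11.07 against 9.48 and 9.07 (2.36 ± 0.71, adjusted p = 0.054). F2r, another thrombin receptor, was the exception, at 6.46 and 5.62 against 7.36 and 7.44 (-1.36 ± 0.45, adjusted p = 0.0654).

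The granule and secreted proteins of platelets had a median difference of 1.46 over 15 genes, and 1 was called. Angpt1, the vessel-stabilising growth factor angiopoietin 1, measured 10.87 and 8.43 in the MS arrays against 7.01 and 6.34 in the CIA baseline arrays and rose by 2.98 ± 0.75 (adjusted p = 0.0404). Pf4, the chemokine platelet factor 4, differed by 0.29 ± 0.16 at levels near the top of the scale (adjusted p = 0.189). The cytoskeleton list had a median of 1.11 over 21 genes and the signalling enzymes one of 0.78 over 19. Neither list held a called gene in limma at the probe sets taken. At an unadjusted p under 0.05, 14 and 10 of their genes were higher, against 12.6% of all genes. Fhl1, in the cytoskeleton list with a difference of 2.04, was called higher at its other probe set, as given above (3.03 ± 0.72, adjusted p = 0.0354). Alox12, the platelet lipoxygenase, measured 12.76 and 11.50 in the MS arrays against 9.88 and 9.74 in the CIA baseline arrays (2.32 ± 0.78, adjusted p = 0.0655). The secretion machinery lay apart, with a median of 0.15 over 19 genes. Its Rab27a, a small GTPase of granule release also used by killer lymphocytes, measured 7.83 and 8.70 against 9.71 and 10.02 and fell by 1.60 ± 0.41 (adjusted p = 0.0404). Rab27b, its platelet relative, measured 12.53 and 10.56 against 8.87 and 8.89 (2.66 ± 0.81, adjusted p = 0.0542). The 2 relatives thus lay on opposite sides of CIA baseline in both MS arrays.

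Megakaryocyte transcription factors were mixed. Gata2, a factor of blood progenitors and megakaryocytes, measured 6.46 and 5.65 in the MS arrays against 5.28 and 5.18 in the CIA baseline arrays and rose by 0.83 ± 0.23 (adjusted p = 0.047). Fli1, an ETS factor of megakaryocytes that lymphocytes also express, measured 8.47 and 9.42 against 10.29 and 10.49 and fell by 1.44 ± 0.35 (adjusted p = 0.0376). Of its other probe sets, 1 was also called lower (-1.29) and another lay higher in both MS arrays, at 7.61 and 7.40 against 7.0 and 6.92 (0.54 ± 0.16, not called). Gata1, the factor of megakaryocytes and red cells, measured 10.23 and 8.39 against 7.80 and 6.76 (2.03 ± 0.67, adjusted p = 0.0646). Summarised as the mean of centred values over the list, the platelet surface receptors stood at 1.45 and 0.37 in the MS arrays against -0.40 and -0.65 at CIA baseline, with a range of -0.71 to 1.31 over the other 20 arrays. MS rep 1 was thus above all other arrays for this list, and MS rep 2 inside their range. The part of platelet content in the genes called higher was not tested.

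Red cell genes did not follow the platelet lists as a whole. Of 16 erythroid genes, 2 were called higher, against 1.41% of all genes. The median difference of the list was 0.17, beside -0.25 over all genes, and it became -0.68 without CIA rep 2 and -0.01 without MS rep 2. The called ones were Xk and Rhag. Rhag measured 10.76 and 9.44 in the MS arrays against 7.77 and 7.14 in the CIA baseline arrays and rose by 2.64 ± 0.71 (adjusted p = 0.0437). The list's centred level was 0.33 and 0.30 in the MS arrays and 0.44 and -0.87 in the CIA baseline arrays, so that the CIA baseline arrays enclosed both MS arrays. Of 8 genes of haem synthesis, 1 was called lower, against 6.39% of all genes. That gene, Cpox, encodes coproporphyrinogen oxidase, and it was among the lowest of all genes by gap.

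Of 21 matrix genes, 3 were called higher, against 1.41% of all genes, and none lower. Lamb1, a laminin chain, measured 9.14 and 6.42 in the MS arrays against 4.75 and 4.39 in the CIA baseline arrays and rose by 3.21 ± 0.75 (adjusted p = 0.0348). Col4a1, a chain of basement membrane collagen, measured 7.81 and 5.40 against 4.47 and 4.48 and rose by 2.13 ± 0.62 (adjusted p = 0.0499). Lama3, another laminin chain, rose by 0.72 ± 0.20 (adjusted p = 0.0467). The median of the 21 matrix genes was 0.27, and no matrix gene lay below both CIA baseline arrays. Outside the matrix list, Gsk3b, the glycogen synthase kinase of the Wnt pathway, measured 10.99 and 9.24 against 7.99 and 7.96 and rose by 2.14 ± 0.59 (adjusted p = 0.046). Wnt11, a Wnt ligand, measured 6.94 and 6.62 against 5.50 and 5.48 and rose by 1.29 ± 0.31 (adjusted p = 0.0368).

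The study had drawn up its own lists from the literature and from ontology terms. Of 36 genes of its early mechanical list measured here, 1 was called, and it was lower. Above both CIA baseline arrays lay 21 of the 36 and below both 4, where 22.9% and 43.2% of all genes lay. At an unadjusted p under 0.05, 9 of the 36 were higher and 3 lower, where 12.6% and 28.1% of all genes were. Orai3, a calcium channel subunit, measured 4.12 and 5.17 in the MS arrays against 6.32 and 6.35 in the CIA baseline arrays and fell by 1.69 ± 0.39 (adjusted p = 0.034). Its early healing list had 3 of 61 genes called lower and none higher in limma, with 13 higher and 13 lower at an unadjusted p under 0.05. Its list for the wound-healing type of epithelial to mesenchymal transition had 3 of 59 genes called higher and 3 lower. Ocln, a tight junction protein, measured 5.86 and 6.24 against 7.43 and 7.41 and fell by 1.37 ± 0.34 (adjusted p = 0.0404), and its other probe set differed by -0.63 without a call. Zeb2, a repressor of epithelial genes, fell by 1.56 ± 0.42 at the probe set taken for it (adjusted p = 0.0437), and another of its probe sets differed by 1.00 in the other direction. Its wound healing ontology list had 3 of 224 genes called higher and 12 lower. Over all genes 1.41% were called higher and 6.39% lower, and the shares called in the early healing and wound healing lists were near or below these. In the transition list, the 3 of 59 genes called higher were above the share of all genes, and the 3 called lower were not. The medians of these 4 lists were 0.29, -0.10, 0.10 and 0.17, and that of the early healing list turned positive without MS rep 1 (0.03) and after quantile normalization (0.09). That of the transition list turned negative without MS rep 2 (-0.02).

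Among the genes called lower, the widest gaps were led by a metabolic enzyme and a factor of immediate response. Cpox measured 5.38 and 6.16 in the MS arrays against 8.24 and 8.42 in the CIA baseline arrays and fell by 2.56 ± 0.41 (adjusted p = 0.0186). Glce, an epimerase of heparan sulphate synthesis, measured 4.88 and 5.39 against 7.65 and 7.46 and fell by 2.42 ± 0.41 (adjusted p = 0.0186). Egr1, a zinc finger factor of immediate early response, measured 7.05 and 7.87 against 9.68 and 10.15 and fell by 2.45 ± 0.43 (adjusted p = 0.0213). Both MS arrays lay far below both CIA baseline arrays at these genes, which were chosen for that gap. Bcl11b, a factor that keeps T cell identity, measured 7.06 and 8.54 against 10.23 and 10.39 and fell by 2.51 ± 0.45 (adjusted p = 0.0232), and its other probe sets differed by -2.0 and -1.60. Klre1, a receptor of killer cells, measured 6.21 and 7.74 against 9.43 and 9.42 and fell by 2.45 ± 0.66 (adjusted p = 0.0438). Marchf1, a ubiquitin ligase that removes class II molecules from the cell surface, measured 5.26 and 7.22 against 9.03 and 8.86 and fell by 2.71 ± 0.75 (adjusted p = 0.0455), and its other probe set differed by -0.93 without a call.

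Some of these genes had probe sets that disagreed. At Gigyf2, a translational repressor, 1 probe set measured 4.28 and 3.85 in the MS arrays against 6.22 and 6.0 in the CIA baseline arrays (-2.05 ± 0.33, adjusted p = 0.0186), and 5 others differed by -1.16 to -0.11. Lrrfip1, a nucleic acid sensor, fell by 2.12 ± 0.39 at 1 probe set, with differences of -1.20 and 0.16 at the others. Tmpo, a protein of the inner nuclear membrane, fell by 2.26 ± 0.37, and its other probe set differed by -0.23. Pakap fell by 2.36 ± 0.45, and its others differed by -0.066 to 0.29. Ctso, a lysosomal protease, measured 3.33 and 5.25 against 6.96 and 7.04 and fell by 2.71 ± 0.59 (adjusted p = 0.0298). Tmem204 measured 5.00 and 5.53 against 7.26 and 7.24 and fell by 1.99 ± 0.31 (adjusted p = 0.0186).

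The list of 25 immediate early genes had a median difference of -0.74, with median shifts of -1.12 in MS rep 1 and -0.25 in MS rep 2. Below both CIA baseline arrays lay 15 genes, beside 43.2% of all genes. Called lower were 2, near the 6.39% of all genes. The called genes were Egr1 and Fos, a subunit of the AP-1 factor. Fos measured 9.05 and 10.60 in the MS arrays against 11.80 and 11.43 in the CIA baseline arrays and fell by 1.79 ± 0.50 (adjusted p = 0.0461), while its other, not called, probe set differed by 0.60. Serum response factor binds CArG boxes in promoters of this class. The promoter of Egr1 (GRCr8, chr18:26736828-26737127, plus strand, 250 bases before to 50 after the RefSeq start) is shown because it holds a pair of them, in capitals, searched as the CArG box on both strands.
Egr1: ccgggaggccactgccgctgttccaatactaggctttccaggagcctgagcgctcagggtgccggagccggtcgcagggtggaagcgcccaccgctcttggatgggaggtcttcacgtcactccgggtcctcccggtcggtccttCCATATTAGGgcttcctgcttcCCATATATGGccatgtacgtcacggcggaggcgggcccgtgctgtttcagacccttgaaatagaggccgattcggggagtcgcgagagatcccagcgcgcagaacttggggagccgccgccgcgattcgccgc
The boxes began 105 and 83 bases before the start. The motif was found in 1.64% of all windows of the table, in 1.48% of those of genes tested, in 2.24% of those of genes called higher and in 1.56% of those of genes called lower. The window of H2al2l printed above also held 1 match to it. The share among genes called lower was near that of all genes tested.

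Lymphocyte lists held a small part of the 707 genes called lower. In the T cell receptor list, 15 of 21 genes lay below both CIA baseline arrays, beside 43.2% of all genes, and 2 were called lower, beside 6.39% of all genes. Trat1, an adaptor of the T cell receptor, measured 3.67 and 5.84 in the MS arrays against 8.42 and 6.90 in the CIA baseline arrays and fell by 2.90 ± 0.68 (adjusted p = 0.0349). Cd5, an inhibitory receptor of T cells, measured 8.12 and 9.28 against 9.97 and 10.34 and fell by 1.45 ± 0.40 (adjusted p = 0.046). Of 16 T cell transcription factors, 3 were called lower, Bcl11b among them. Ets1 measured 10.33 and 11.76 against 12.65 and 12.60 and fell by 1.58 ± 0.40 (adjusted p = 0.0409). Nfatc1, which calcineurin brings into the nucleus, measured 7.42 and 8.26 against 9.17 and 9.30 and fell by 1.40 ± 0.33 (adjusted p = 0.0361). Gata3, a factor of helper T cells, lay in the other direction, at 11.23 and 9.76 against 8.94 and 9.21 (1.43 ± 0.43, adjusted p = 0.0541), and its other probe set, at 10.18 and 8.80 against 7.35 and 7.46, was called higher (2.09 ± 0.48, adjusted p = 0.034).

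B cell genes had the highest count of calls among the cell type lists, 7 of 17 called lower against 6.39% of all genes. Ms4a1, which encodes the surface protein CD20, measured 6.70 and 8.17 in the MS arrays against 9.89 and 9.58 in the CIA baseline arrays and fell by 2.30 ± 0.41 (adjusted p = 0.0221). Cd79b, a chain of the B cell receptor, measured 7.28 and 8.40 against 9.22 and 9.45 and fell by 1.49 ± 0.36 (adjusted p = 0.0364). Pou2af1, a coactivator of immunoglobulin genes, measured 7.07 and 7.40 against 9.20 and 9.04 and fell by 1.88 ± 0.28 (adjusted p = 0.0186). MS rep 2 stood over 1 below both CIA baseline arrays at Ms4a1 and Pou2af1, and less than that at Cd79b. In the plasma cell list, 3 of 9 genes were called lower. Jchain, which joins polymeric antibodies, measured 8.10 and 8.77 against 10.44 and 10.03 and fell by 1.80 ± 0.30 (adjusted p = 0.0186), and its other probe set differed by -0.74 without a call. Mzb1, an antibody chaperone, fell by 1.37 ± 0.30 and Prdm1, the plasma cell factor Blimp1, by 1.64 ± 0.42. The killer cell list had 19 of 21 genes below both CIA baseline arrays, beside 43.2% of all genes, and a median of -1.29. Klre1 was its only call, and 6.39% of all genes were called lower. In NOCIA the median change of this list over 34 days was -1.11, with 20 genes below 0, beside a median of -0.05 over all genes.

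Among genes of antigen presentation, 2 of 12 in the class II list and 1 of 16 in the class I list were called lower, against 6.39% of all genes. The class II list had a median shift of -1.89 in MS rep 1 and -0.26 in MS rep 2. Ciita, the master regulator of class II genes, measured 5.65 and 6.44 in the MS arrays against 7.79 and 7.82 in the CIA baseline arrays and fell by 1.76 ± 0.29 (adjusted p = 0.0186), while its other probe set measured 6.63 and 6.45 against 6.69 and 7.01 and was not called (-0.31 ± 0.18, adjusted p = 0.202). RT1-Db1, a rat class II beta chain, measured 9.52 and 10.95 against 11.42 and 11.68 and fell by 1.32 ± 0.38 (adjusted p = 0.0499). A second RT1-Db1 probe set measured 8.09 and 7.94 against 9.64 and 9.91 and was also called lower (-1.75 ± 0.47, adjusted p = 0.0437). Of the class I list, Erap1, which trims peptides, was called lower (-1.20 ± 0.31, adjusted p = 0.0415). Of 29 interferon genes, 3 were called lower, beside the same 6.39%, and their median was -0.74. Mx1, an antiviral GTPase, measured 8.08 and 9.17 against 10.19 and 10.44 and fell by 1.69 ± 0.44 (adjusted p = 0.0431). Stat2, which carries the type I interferon signal, fell by 1.11 ± 0.28 and Parp14 by 1.27 ± 0.35.

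Monocyte and granulocyte genes gave no call in limma. Of 24 monocyte genes, 14 lay below both CIA baseline arrays, against 43.2% of all genes. At an unadjusted p under 0.05, 7 of the 24 were lower, against 28.1% of all genes. The median shift of the monocyte genes was -1.73 in MS rep 1 and -0.37 in MS rep 2. Clec4a3, a lectin of myeloid cells, measured 7.73 and 9.77 in the MS arrays against 10.56 and 10.78 in the CIA baseline arrays (-1.91 ± 0.74, adjusted p = 0.0869). Among 13 neutrophil genes, 2 were lower at an unadjusted p under 0.05 and none higher. The alarmins S100a8 and S100a9 differed by -0.44 ± 0.96 and -0.43 ± 0.84. In the dendritic list Ly75, an uptake receptor, measured 3.23 and 5.02 against 6.48 and 6.84 and fell by 2.54 ± 0.55 (adjusted p = 0.0301). The 9 mast cell and basophil genes had a median of 0.47, with 5 above both CIA baseline arrays, 2 below both, and Gata2 called higher. Over all genes, 22.9% lay above both, 43.2% lay below both and 1.41% were called higher. Mcpt8 and Hdc, a mast cell and basophil protease and the enzyme that makes histamine, differed by -0.96 and -0.82. Cpa3, a protease of mast cells, measured 6.97 and 7.06 against 5.34 and 5.08 (1.80 ± 0.64, adjusted p = 0.0709), and the MS arrays lay close together at it.

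Among genes that most cells use, all 41 ribosomal protein genes lay below the CIA baseline mean in both MS arrays, with a median shift of -0.98 in MS rep 1 and -0.09 in MS rep 2, beside -0.44 and -0.07 over all genes. One of them was called, Rps27l, at 6.0 and 6.51 in the MS arrays against 7.08 and 7.15 in the CIA baseline arrays (-0.87 ± 0.18, adjusted p = 0.0274). The tricarboxylic acid cycle list had 4 of 23 genes called lower, against 6.39% of all genes, and a median of -0.68. Sdha, the catalytic subunit of succinate dehydrogenase, measured 7.89 and 8.88 against 9.55 and 9.59 and fell by 1.19 ± 0.30 (adjusted p = 0.0404). Ogdh and Pdhx, of the dehydrogenase complexes that feed and drive the cycle, fell by 1.04 ± 0.26 and 1.64 ± 0.40. In the TGF-beta list, 4 of 20 genes were called lower, against the same 6.39%. The list median was 0.039, however, and it became -0.12 with the filter at the 60th percentile. Above both CIA baseline arrays lay 8 of its genes and below both 6, where 22.9% and 43.2% of all genes lay. Ltbp1, which anchors latent TGF-beta in the matrix, differed by 2.10 and was not called. Smad1, a signal carrier of bone morphogenetic proteins, measured 4.82 and 6.11 against 7.28 and 7.20 and fell by 1.78 ± 0.35 (adjusted p = 0.0262), while its other probe set differed by -0.10 ± 0.17 (adjusted p = 0.683). Smad2 and Smad3, which carry the TGF-beta signal, fell by 1.01 ± 0.27 and 0.86 ± 0.24. At Smad6, 1 probe set was called higher (0.80 ± 0.18, adjusted p = 0.0337), and another was not called (0.83 ± 0.24, adjusted p = 0.0513). Bnip3, a mitochondrial inducer of autophagy, rose, at 9.14 and 8.27 against 6.42 and 6.65 (2.17 ± 0.55, adjusted p = 0.0404), and Bid, which links death receptors to mitochondria, fell by 0.95 ± 0.25. The cell cycle list had no call in limma, with 1 gene higher and 6 of 28 lower at an unadjusted p under 0.05.

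**Figure D3:**
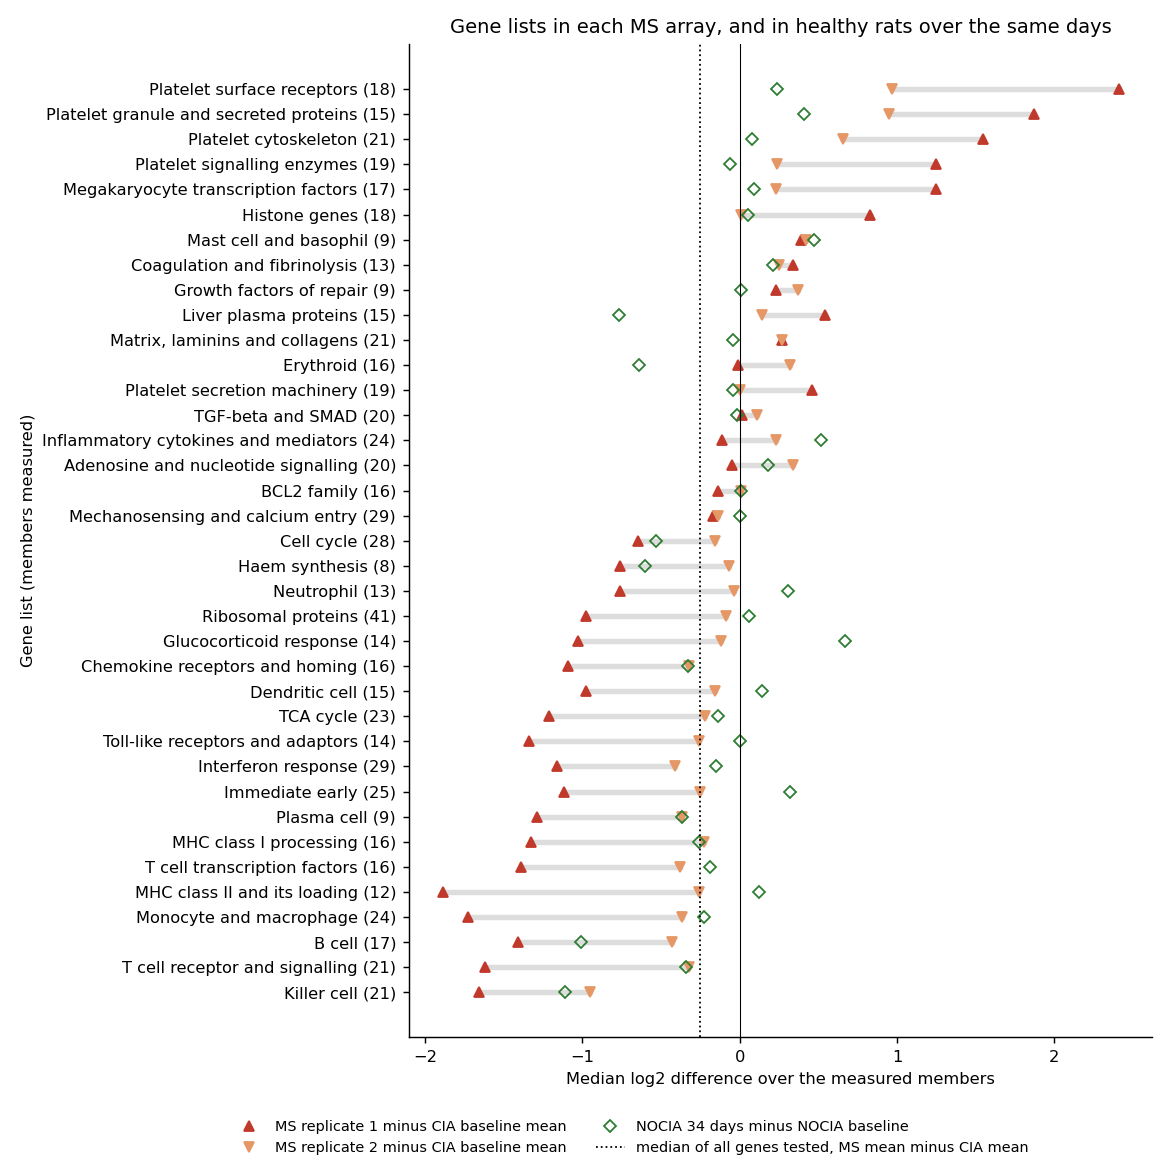
Median log2 difference from the CIA baseline mean over the kept genes of each list, for MS rep 1 and MS rep 2, beside the median change in NOCIA rats, with a dotted line at the median of the mean MS change over all 11057 genes (-0.25). Platelet receptors stand highest at 2.41 in MS rep 1 and 0.97 in MS rep 2, and the class II list stands lowest in MS rep 1 at -1.89.

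The change over 34 days in healthy rats was set beside that in MS rats. Both come from one fit that pools the spread. Among the 1125 probe sets called lower in MS, the median change was -1.19 in MS and -0.81 in NOCIA, and 1070 (95.1%) lay below 0 in NOCIA, beside 51.9% of all tested. In NOCIA 461 of them (41%) were called lower, against 5.66% of all probe sets, and 1 was called higher. Among the 314 called higher in MS, the median was 1.08 in MS and 0.20 in NOCIA, and 39 (12.4%) were called higher in NOCIA, against 6.31% of all probe sets. The probe sets were chosen for their change in MS, so that a smaller median in NOCIA follows in part from that choice, and the difference between the medians was not tested. Most of those called lower in MS lay below 0 in healthy rats over the same days. For the 222 called lower with a gap over 1, the medians were -1.66 and -1.46, and for the 75 called higher with such a gap they were 2.35 and 0.34, MS first.

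Single genes showed both cases. Cpox fell by 2.56 ± 0.41 in MS and changed by -2.70 in NOCIA. Egr1 changed by -2.45 in MS and -2.33 in NOCIA, Bcl11b by -2.51 and -2.01, Ms4a1 by -2.30 and -2.15, and Pou2af1 by -1.88 and -2.62. The B cell list had 9 genes called lower in NOCIA, where 6.1% of all genes were called lower and 5.57% higher, and a median change of -0.97 in MS and -1.01 in NOCIA. Xk changed by 3.31 in MS and -0.03 in NOCIA, H2al2l by 3.18 and 0.26, and Mpped2 by 3.10 and -0.08. Trat1 changed by -2.90 in MS and -0.12 in NOCIA. RT1-Db1 differed by -1.32 in MS and -0.033 in NOCIA, and the class II list had a median of -0.96 in MS and 0.12 in NOCIA. Ciita, of the same list, changed by -1.76 in MS and -1.65 in NOCIA. The ribosomal list had a median of -0.57 in MS and 0.06 in NOCIA. In the test of the difference between the 2 changes, 1 probe set was called higher (0.00483%) and 6 lower (0.029%) by limma, and none of the genes named in this paragraph was among them. The tests of Xk and H2al2l gave differences of 3.34 ± 1.32 (adjusted p = 0.204) and 2.93 ± 1.18 (adjusted p = 0.209), so that their changes were not shown to differ from those of NOCIA.

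**Figure D4:**
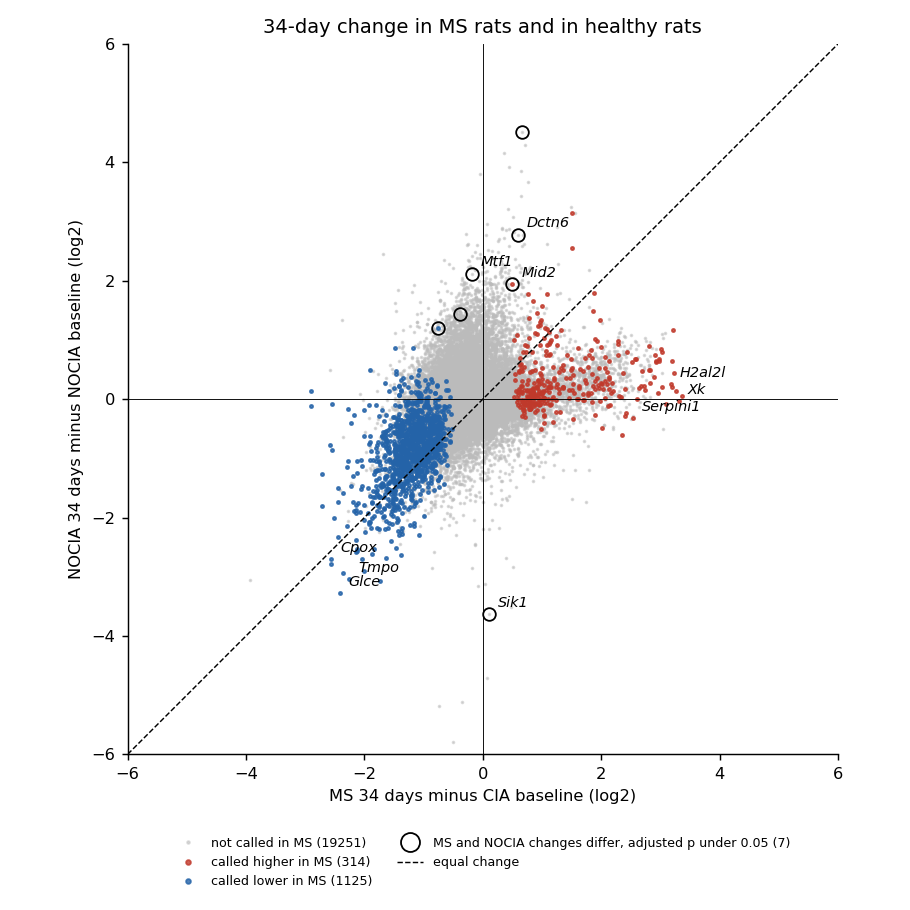
Change over 34 days in MS rats against CIA baseline (x axis) and in healthy NOCIA rats against their baseline (y axis), log2, for 20690 probe sets, with those called in MS in red and blue and circles at the 7 whose changes differed. Those called lower mostly lie below 0 on both axes, with medians of -1.19 in MS and -0.81 in NOCIA, and those called higher lie around a NOCIA median of 0.20.

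Across the other arms at 34 days, which were compared with the same CIA baseline arrays and are given side by side only, Cpox measured 5.38 and 6.16 in MS, 6.15 and 6.89 with methotrexate, 7.65 and 8.12 with isoflurane, 7.22 and 7.24 with saline placebo, 5.51 and 6.13 in NOCIA at 34 days, and 8.24 and 8.42 at CIA baseline. Xk measured 10.71 and 8.95 in MS, 8.26 and 6.46 with methotrexate (MTX), 7.50 and 4.93 with the inhaled anaesthetic isoflurane (ANE), 7.20 and 7.21 with saline placebo (PLA), 6.80 and 7.28 in NOCIA at 34 days, and 6.52 in both CIA baseline arrays. The Cpox values of MS were close to those of NOCIA at 34 days, and the Xk value of MS rep 1 was the highest of all.

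Many probe sets stood apart in MS rep 1 alone. At 474 probe sets MS rep 1 lay over 1 above both CIA baseline arrays while MS rep 2 lay within 0.25 of their mean, and at 1290 it lay over 1 below. The reverse, with MS rep 2 apart, held for 13 and 8. These are single arrays and carry no test. Pgbd5, a gene derived from a transposase, measured 8.03 in MS rep 1 and 4.04 in MS rep 2, against 4.38 and 3.68 in the CIA baseline arrays. Gucy1a1, a subunit of the nitric oxide receptor of platelets and smooth muscle, measured 8.94 and 5.45 against 5.51 and 5.18 at the probe set chosen, but 11.31 and 9.45 against 8.31 and 8.28 at its other, where MS rep 2 was also above both CIA baseline arrays. Runx1t1, a transcriptional corepressor, measured 6.97 and 3.40 against 3.31 and 3.30. MS rep 2 lay near CIA baseline at Pgbd5 and Runx1t1. Below, Hes1, a target of Notch, measured 3.84 and 6.51 against 6.53 and 6.34. Fcnb, a lectin of myeloid cells, measured 10.19 and 12.49 against 12.31 and 12.79. Dusp1, a phosphatase that turns off stress kinases, measured 7.58 and 9.81 against 9.94 and 9.57.

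The probe sets where MS rep 2 alone stood apart were chosen for that pattern, and Xcl1 among them belongs to the killer cell list. Nr4a3, an orphan nuclear receptor induced early, measured 6.04 in MS rep 1 and 7.09 in MS rep 2, against 5.86 and 5.98 in the CIA baseline arrays, and it changed by 3.85 in NOCIA. Another Nr4a3 probe set lay below both CIA baseline arrays, at 6.21 and 6.86 against 7.09 and 7.47. Herpud1, a gene of the response to unfolded protein, measured 10.04 and 11.61 against 10.32 and 9.96 and changed by 2.77 in NOCIA. Socs2, an inhibitor of cytokine signalling, measured 4.88 and 5.95 against 4.74 and 4.65. In the other direction, Lrrc8c, a subunit of volume-regulated anion channels, measured 9.63 and 8.55 against 9.71 and 9.76. The chemokine gene Xcl1 measured 6.33 and 5.48 against 6.93 and 6.17. Ifi27, an interferon-induced gene, measured 10.27 and 8.81 against 8.71 and 11.94, so that the CIA baseline arrays themselves lay far apart. At a few genes the MS arrays lay on opposite sides. Tspan12, a tetraspanin, measured 11.62 in MS rep 1 and 6.29 in MS rep 2, against 8.36 and 8.13. Ceacam1, an adhesion receptor of leukocytes, measured 10.57 and 6.52 against 8.32 and 8.01. Tubb2a, a beta tubulin, measured 13.96 and 10.97 against 12.32 and 12.09. A mean of the MS arrays hides a fall in MS rep 2 at these genes.

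Genes tied to inflammation and to adenosine, a mediator studied in needle therapy, were not called with the exception of Entpd1. Entpd1, the ectoenzyme that breaks down ATP, measured 7.02 and 6.17 in the MS arrays against 5.55 and 5.47 in the CIA baseline arrays and rose by 1.09 ± 0.31 (adjusted p = 0.0499). The receptor Adora2a measured 7.33 and 8.48 against 8.03 and 8.11 (-0.17 ± 0.36, adjusted p = 0.743), with MS arrays on either side, its sign turned to 0.14 after quantile normalization, and its other probe set differed by 0.12. Ada, adenosine deaminase, measured 7.39 and 8.44 against 8.65 and 8.79 (-0.81 ± 0.39, adjusted p = 0.142). Of 20 genes in the list of adenosine and nucleotide signalling, 7 were higher and 3 lower at an unadjusted p under 0.05 in limma. Over all genes these shares were 12.6% and 28.1%. The list median was -0.03, beside -0.25 over all genes. Adk differed by 1.95 ± 0.64 and 1.74 ± 0.64 at 2 probe sets and Nt5e by -0.85 ± 0.27, without a call. Il1b, the cytokine interleukin 1 beta, measured 9.64 and 9.56 against 8.92 and 8.69 (0.79 ± 1.04, adjusted p = 0.577). The inflammatory list of 24 genes had a median of 0.03 and no call in limma, with 2 higher and none lower at an unadjusted p under 0.05, and its sign turned without MS rep 2 (-0.11). Of 14 glucocorticoid targets Mt1, a metal-binding metallothionein, was called, at 6.28 and 6.54 against 5.77 and 5.69 (0.68 ± 0.19, adjusted p = 0.0449), and it changed by 0.80 in NOCIA. The list lay in the other direction, with a median of -0.59, beside -0.25 over all genes. Above both CIA baseline arrays lay 2 of its genes and below both 8, where 22.9% and 43.2% of all genes lay. At an unadjusted p under 0.05 in limma, 1 was higher and 5 lower. The median change of the list in NOCIA was 0.67. The smallest p that an exact two-sided permutation test allows for groups of 2 is 0.333, and each adjusted p above therefore rests on the spread pooled over the groups of the series.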

How the data were processed

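Peripheral blood mononuclear cells of 24 samples in 12 groups of 2 were measured on Affymetrix arrays, of which 4 make the comparison and 4 more (NOCIA) stand beside it. The deposited log2 values were made by the authors by RMA with the affy package, whose version is not given in the sources used here, as per the labels, while the study's methods describe MAS5 intensities and detection calls. Array medians ran from 5.49 to 5.58. Of 31099 probe sets, 20832 had 1 gene symbol, 436 several and 9831 none in the platform annotation, and 20764 of the first matched a current gene ID. Control probe sets (57) were left out, and 20690 were tested, those that exceeded an array's 40th percentile on 2 arrays or more. Differences were fitted with limma 3.58.1 in R 4.3.3 over all 24 arrays with 1 coefficient per group (12 residual degrees of freedom), and p-values are two-sided with Benjamini-Hochberg adjustment over all probe sets tested. With 2 arrays per group, their number limits the precision. Lists used 1 probe set per gene, the one with the highest mean over all arrays, and carry no set test. The members and lists were chosen with earlier results of these data known. Named genes are the 12 highest and 12 lowest called by gap, the genes that moved in 1 MS array only or in opposite directions, up to 6 per list with those called first, and fixed genes of interest. The fit was tested on simulated data for this comparison (20 simulations of 20690 probe sets, 200 changed). There it recovered 37% of 2-fold and 83.7% of 4-fold changes, and 5.3% of its calls were false. These shares describe the simulated arrays only. In the real data the MS pair lay much further apart than the CIA baseline pair (SD 0.836 against 0.286). Whether the shares hold for the real arrays was not tested, and 5.3% is no estimate for the calls reported here. Alternatives were the replicate block, the 4 arrays alone, leaving out 3 other arrays that stood apart, other filters, quantile normalization, limma-trend, array weights and leaving out each replicate. Promoters are from RefSeq, build GRCr8. Figures used Python 3.11.15, pandas 2.3.3 and matplotlib 3.10.9.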

Additional observations from a re-analysis of the deposited data

Results flagged for a closer look

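At 7 probe sets the change over 34 days in MS rats differed from that in healthy NOCIA rats by the limma test of the difference. In each, the larger part of the difference lay in NOCIA. Sik1, a salt-inducible kinase, measured 5.61 and 5.08 in MS at 34 days against 5.31 and 5.18 at CIA baseline, and 5.03 and 5.25 in NOCIA at 34 days against 8.74 and 8.81 at NOCIA baseline, a difference of 3.73 ± 0.28 (adjusted p = 1.12e-05). The NOCIA baseline arrays stood above all others at this gene. Mid2, a ubiquitin ligase, measured 5.30 and 5.33 in MS against 4.83 and 4.80 at CIA baseline, and 6.55 and 6.56 in NOCIA at 34 days against 4.62 and 4.61 at NOCIA baseline (-1.44 ± 0.19, adjusted p = 0.00997). Dctn6, a dynactin subunit, differed by -2.19 ± 0.33 (adjusted p = 0.0265) and Mtf1, the metal-responsive factor, by -2.30 ± 0.37 (adjusted p = 0.0415). The 3 other probe sets have no gene symbol and differed by -3.86, -1.97 and -1.82.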

How the results depend on the processing

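Against 314 probe sets called higher and 1125 lower, the fit with a replicate block gave 567 and 1388, that with only the 4 arrays 0 and 0, that without 3 other arrays that stood apart 2241 and 4249, and array weights 0 and 0. At an unadjusted p under 0.05, limma gave 953 higher and 2053 lower with only the 4 arrays and 1244 and 2887 with array weights. Leaving out each of the 4 arrays in turn gave 0 to 3726 higher and 0 to 6229 lower, both highest without MS rep 2. The methods' thresholds then gave 102 to 2237 higher and 394 to 4746 lower. For MS minus NOCIA changes (1 higher, 6 lower), leaving out 3 other arrays gave 181 and 1281, quantile normalization 15 lower, and leaving out single arrays 1 to 1957 higher and 0 to 4138 lower. Without 1 CIA baseline array, MS rep 2 lay over 1 above at 377 to 606 probe sets and below at 567 to 595. The cause was not tested, beyond the smaller number of arrays. The replicate numbers are shared only as numbers: deviations of MS rep 1 and CIA rep 1 correlated at 0.12 across probe sets, from 1 pair of groups with 2 numbers. No named called gene changed sign under any of these. Leaving out 1 of the 4 arrays could not change a sign, because the groups did not overlap at any called probe set. Among genes not called, Adora2a became 0.14 after quantile normalization, and leaving out single arrays gave -0.74 to 0.41 for Adora2a, -1.22 to 0.17 for Tfrc, -1.43 to 0.25 for Hp, -0.97 to 0.18 for Urod and -1.96 to 0.33 for Fech. At most 3 of 41 list medians changed sign under any alternative.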
